A study of Mus musculus with 10 samples.

Results

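Proliferating lymphatic endothelial cells (LECs) were examined among cells of mouse ear skin that had been sorted singly into 8 plates and sequenced by Smart-seq, a protocol that reads full-length transcripts of 1 cell per well and carries no molecular identifiers. A well was kept when it held at least 50000 gene counts and at least 1000 detected genes, and a kept well was called proliferating when at least 4 of 6 genes, Mki67, Cenpa, Top2a, Birc5, Ube2c and Cdk1, were each at 20 CPM or more (gene counts scaled to one common total in every well). Of 3048 wells, 2664 were kept, 71 of them were proliferating and 2593 were not. The latter are called other wells.

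The plates came from 4 genotypes with 2 plates each. Tie1 fl/fl and Tie1 Tie2 fl/fl were the Cre-negative controls with loxP-flanked receptor genes, and Tie1 iΔLEC and Tie1 Tie2 iΔLEC carried in addition Prox1-CreERT2, a tamoxifen-inducible Cre driven by the Prox1 promoter, so that deletion is directed to the lymphatic endothelium but also to other Prox1-expressing cells. All 4 genotypes, controls included, received 4-hydroxytamoxifen from postnatal day 1 to day 5, and the age on the labels is these days of induction. By the study's text the ears were taken later, at about the end of the fourth postnatal week. Live cells were sorted as CD31+ PDPN+ CD45- CD11b- Ter119-. How many mice contributed to a plate is not given in the sources used here, so a test over plates measures the spread between plates, which may be technical. Plate totals ran from 71249844 gene counts (Tie1 Tie2 iΔLEC 1) to 110741537 (Tie1 Tie2 iΔLEC 2). Tie1 fl/fl 1 and Tie1 iΔLEC 1 were labelled female and the other 6 plates male, so that sex and plate cannot be told apart.

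Lymphatic vessels grow postnatally by division of their endothelial cells, driven largely by VEGF-C through VEGFR3, the product of Flt4, while angiopoietin-2 acts through the receptors Tie1 and Tie2, the latter encoded by Tek. A dividing cell copies its DNA in S phase and then accumulates a late programme in G2 and mitosis. Many genes of that late programme are held down in resting cells by the DREAM complex, which binds a cell cycle homology region (CHR) in their promoters, commonly beside CCAAT boxes bound by NF-Y, whereas E2F sites are typical of genes of S phase.

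The 6 selecting genes are late cell cycle genes, and their promoters are shown so that they can be read for the elements through which this programme is known to be controlled. The 150 bases before the transcription start are printed 5′ to 3′ from RefSeq (GRCm38.p6). Capitals mark the CHR (TTTGAA or TTCGAA), the CCAAT box (CCAAT) and E2F sites (TTTGGCGC, TTTCCCGC or TTTCGCGC), each searched on both strands, and no marked match overlaps another. The windows lie at chr7:135716380-135716529 on the minus strand for Mki67, the proliferation antigen Ki-67; at chr5:30666736-30666885 on the plus strand for Cenpa, the centromeric histone; at chr11:99024190-99024339 on the minus strand for Top2a, a DNA topoisomerase; at chr11:117849087-117849236 on the plus strand for Birc5, survivin of the chromosomal passenger complex; at chr2:164769779-164769928 on the plus strand for Ube2c, the ubiquitin-conjugating enzyme of the anaphase-promoting complex; and at chr10:69352913-69353062 on the minus strand for Cdk1, the mitotic kinase.
Mki67: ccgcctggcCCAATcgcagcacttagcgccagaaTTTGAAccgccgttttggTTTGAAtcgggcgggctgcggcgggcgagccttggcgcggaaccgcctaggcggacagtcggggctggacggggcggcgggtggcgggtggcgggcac
Cenpa: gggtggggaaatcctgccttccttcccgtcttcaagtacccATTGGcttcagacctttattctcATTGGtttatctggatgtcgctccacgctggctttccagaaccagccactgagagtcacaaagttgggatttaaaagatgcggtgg
Top2a: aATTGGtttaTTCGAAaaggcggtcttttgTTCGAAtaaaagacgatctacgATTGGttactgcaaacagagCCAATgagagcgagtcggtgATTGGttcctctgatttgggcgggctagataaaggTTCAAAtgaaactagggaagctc
Birc5: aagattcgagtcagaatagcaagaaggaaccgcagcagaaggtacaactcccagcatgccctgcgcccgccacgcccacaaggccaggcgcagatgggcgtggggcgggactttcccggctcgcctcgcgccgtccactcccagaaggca
Ube2c: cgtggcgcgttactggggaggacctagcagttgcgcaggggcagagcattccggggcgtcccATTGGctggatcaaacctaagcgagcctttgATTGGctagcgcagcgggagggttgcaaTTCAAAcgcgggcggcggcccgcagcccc
Cdk1: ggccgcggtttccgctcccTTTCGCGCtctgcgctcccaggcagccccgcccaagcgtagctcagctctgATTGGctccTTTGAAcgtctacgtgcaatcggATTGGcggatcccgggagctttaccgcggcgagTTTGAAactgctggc

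The matches fell unevenly over the windows. Top2a held 3 CHR matches and 4 CCAAT boxes, Mki67 2 and 1, Cdk1 2 and 2 with 1 E2F match, and Ube2c 1 and 2, whereas Cenpa held 2 CCAAT boxes and no CHR in the printed stretch and Birc5 held none of the 3 elements. Over the RefSeq window of 250 bases before to 50 bases after the start, a CHR was found in 5 of the 6 genes and a CCAAT box in 5. Of the genes listed for G2 and M phase outside the 6, 41 of 48 matched with 46 promoters, of which 71.7% held a CHR, 73.9% a CCAAT box and 56.5% both. Among all 32851 promoters the shares were 19.2%, 37.4% and 7.52%. For S phase genes (34 promoters) the CHR stood at 17.6%, a CCAAT box at 67.6%, and an E2F match at 35.3% against 1.84% of all promoters. A match of letters is not a bound site, and no binding was measured here.

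The proliferating wells were unevenly spread over plates. Tie1 fl/fl 1 held 29 of 271 kept wells, a share of 10.7% (exact binomial 95% confidence interval 7.28 to 15.0), while the other 3 control plates held 2 of 340 (Tie1 fl/fl 2, 0.588%, 0.0713 to 2.11), 4 of 352 (Tie1 Tie2 fl/fl 1, 1.14%, 0.310 to 2.88) and 3 of 333 (Tie1 Tie2 fl/fl 2, 0.901%, 0.186 to 2.61). Among the deleted plates, Tie1 iΔLEC 1 held 12 of 323 (3.72%, 1.93 to 6.40), Tie1 iΔLEC 2 5 of 344 (1.45%, 0.474 to 3.36), Tie1 Tie2 iΔLEC 1 9 of 348 (2.59%, 1.19 to 4.85) and Tie1 Tie2 iΔLEC 2 7 of 353 (1.98%, 0.801 to 4.04). The intervals cover counting of wells only. The interval of Tie1 fl/fl 1 lay above those of the other 7 plates, which all overlapped each other.

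Deleted and control plates could not be separated. The mean difference within strains, deleted minus control, was -0.897 percentage points (exact permutation test of 36 arrangements within strains, two-sided p = 1, with 0.056 the smallest p this design allows). The difference was -3.06 points in the Tie1 strain, where the deleted plates lay between the 2 controls, and 1.27 points in the Tie1 Tie2 strain, where both deleted plates lay above both controls. With at least 5 of the 6 genes required, the difference in the Tie1 Tie2 strain was -0.019 points. The deleted plates then held 1.15% and 0.850% and the controls 1.14% and 0.901%, so that order was lost. Without Tie1 fl/fl 1 the mean difference turned to 1.63 points (exact permutation p = 0.111, the smallest that 18 arrangements allow), and over the 6 plates labelled male it was 1.07 points (exact permutation p = 0.167, also the smallest possible).

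The 2 plates richest in proliferating wells also held low counts of the selecting genes in their other wells. At least 1 count of 4 or more of the 6 genes was present in 42.1% of the other wells of Tie1 fl/fl 1 and in 31.2% of those of Tie1 iΔLEC 1, against 0% to 5.15% on the other 6 plates. Mki67 alone had a count in 49.6% and 53.4% of the other wells of these plates and in 8.58% to 18.8% elsewhere. Their summed level in other wells was 45.7 CPM on Tie1 fl/fl 1, within the range of the other 6 plates (26.0 to 46.0 CPM), and 67.9 CPM on Tie1 iΔLEC 1. Mki67 alone was lowest on Tie1 fl/fl 1, at 5.80 CPM.

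The share on these 2 plates moved with the threshold. At 10 CPM they held 47 of 271 (17.3%) and 31 of 323 (9.60%) proliferating wells, and with every well thinned to 50000 counts 39 of 262 (14.9%) and 30 of 319 (9.40%). At 50 CPM they held 18 of 271 (6.64%) and 11 of 323 (3.41%). Of the 29 proliferating wells on Tie1 fl/fl 1, 10 had under 100000 gene counts, against 37 of its 242 other wells, and with 100000 counts required the share there was 19 of 224 (8.48%). Leaving out the wells whose profile correlated with the plate sum above the 95th percentile of the plate left 26 of 257 (10.1%). The part that RNA shared between wells plays in the share was otherwise not tested.

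**Figure D1:**
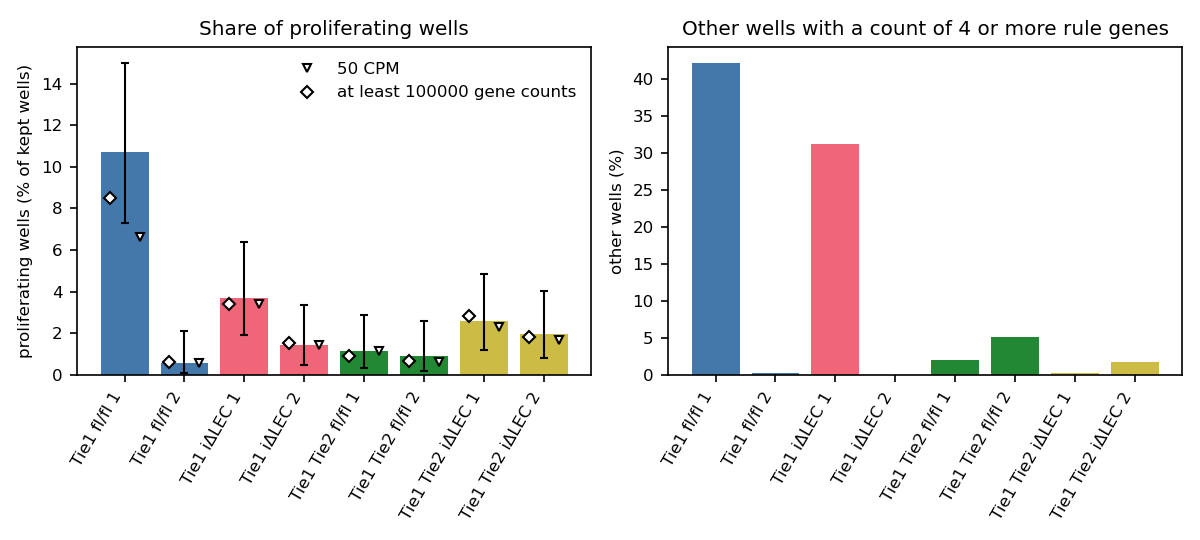
Left, share of kept wells called proliferating on each plate (bars, percent) with exact binomial 95% confidence intervals, and the share at 50 CPM (triangles) or among wells with at least 100000 gene counts (diamonds). Right, share of the other wells with at least 1 count of 4 or more of the 6 selecting genes, which is 42.1% and 31.2% on the first plates of Tie1 fl/fl and Tie1 iΔLEC and at most 5.15% elsewhere.

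The rule separated the wells as follows, as a description without a test. Of the 71 wells, 33 had all 6 genes at 20 CPM or more, 16 had 5 and 22 had 4, with median summed levels of the 6 genes of 3090, 1360 and 1029 CPM. Just outside the rule, 29 wells had 3 of the genes at a median sum of 360 CPM. A further 60 had 2, 359 had 1 and 2145 had none. Mki67 was at 20 CPM or more in 70 of the 71 wells, Birc5 in 67, Cenpa in 65, Ube2c in 59, Top2a in 54 and Cdk1 in 51.

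Summed by plate, Mki67 lay between 436 and 1053 CPM in proliferating wells (median of 8 plates 729) and between 5.80 and 17.8 CPM in other wells (median 9.81). Top2a and Ube2c were the exceptions to the separation. Both were at 0 in the 2 proliferating wells of Tie1 fl/fl 2, where 3 counts would be 3.83 CPM. On the 8 plates Top2a otherwise reached up to 1296 CPM and Ube2c up to 351 CPM.

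The label was examined against lymphatic markers, which the rule did not use. All 7 of Prox1, Pdpn, Flt4, Lyve1, Mmrn1, Ccl21a and Reln were at 20 CPM or more in 66 of the 71 proliferating wells (93.0%), no well had fewer than 5, and all 7 were present in 73.8% of the other wells. These shares pool the wells of all plates, and Tie1 fl/fl 1 and Tie1 iΔLEC 1 gave 29 and 12 of the 71. The other wells of these plates had medians of 7434 and 7247 detected genes, against 3734 to 6547.5 elsewhere. Markers of another cell type, counted when at least 3 of its list were at 20 CPM or more, were found in 13 proliferating wells (18.3%) and in 456 other wells (17.6%). Without such wells in either kind, the comparison with other wells described below called 225 genes higher and 2414 lower, and 2217 of these calls were shared with the comparison of all wells.

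Transcripts of other cells were found in both kinds of well. Sums were higher in proliferating than in other wells on 4 of 8 plates for leukocyte markers and on 3 for mural markers. They were higher on 2 plates each for keratinocyte, blood endothelial, and melanocyte and Schwann markers, and on 1 each for fibroblast markers and hemoglobin genes. In proliferating wells the mural sum reached 360 CPM, the keratinocyte sum 186 CPM and the melanocyte and Schwann sum 122 CPM. The 6 fibroblast markers summed to 1071 CPM on Tie1 Tie2 fl/fl 1, led by Dcn at 718 CPM and with none at 0, against 8.61 to 102 CPM on the other 7 plates. The 4 hemoglobin genes summed to 509 CPM on Tie1 Tie2 iΔLEC 2 and to at most 5.02 CPM elsewhere. Among 8 blood endothelial markers the sum ran from 43.2 to 657 CPM, led by Emcn or Cd34, with 1 to 5 of the 8 at 0. The 7 leukocyte markers summed to 0 CPM on Tie1 Tie2 fl/fl 2 and reached 222 CPM on Tie1 fl/fl 2, where Cd68 gave 220 CPM and 5 of the 7 were at 0.

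No doublet caller was applied, and wells were examined for size instead. The plate medians of gene counts differed by 0.19 ± 0.50 on the log2 scale (SD, n = 8 plates, proliferating minus other), with 5 of 8 plates higher (exact permutation test by sign flips over plates, p = 0.3125, two-sided). The difference was 0.43 without the wells with markers of other cell types (exact permutation p = 0.0469) and 0.47 among wells with at least 100000 counts (exact permutation p = 0.00781). After each well was thinned to 50000 counts, proliferating wells had more detected genes on 7 of 8 plates, by 0.31 ± 0.21 on the log2 scale (SD, n = 8 plates, exact sign-flip permutation p = 0.0156, smallest possible 0.00781). The plate medians were 5010 against 4055 genes on Tie1 fl/fl 1 and 4433 against 2673 on Tie1 iΔLEC 2, while on Tie1 fl/fl 2 they were 2695 and 2705.

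The wells were described by a panel of M phase genes and a panel of S phase genes, without a test. The selecting genes are late genes, so a high share of wells with other late genes is favoured by the rule. At least 4 of the 6 genes of an M phase panel, none of them used by the rule (Ccnb1, Ccnb2, Cdc20, Plk1, Aurka and Cenpf), were at 20 CPM or more in 59 of 71 proliferating wells (83.1%) and in 14 of 2593 other wells (0.540%). At least 4 of an S phase panel (Mcm2, Mcm5, Mcm6, Pcna, Tyms and Gins2, which license, clamp or feed DNA replication) were found in 26 proliferating wells (36.6%) and in 104 other wells (4.01%). Both panels were met by 23 proliferating wells, the M panel alone by 36, the S panel alone by 3 and neither by 9. All 9 of the last had exactly 4 of the selecting genes, and the M panel was met by 11 of the 22 wells with 4, 15 of 16 with 5 and 33 of 33 with all 6. Of the 104 other wells with the S panel, 62 were on the 2 plates with traces of the selecting genes. Since the selecting genes peak late themselves, cells in early S phase could be missed.

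**Figure D2:**
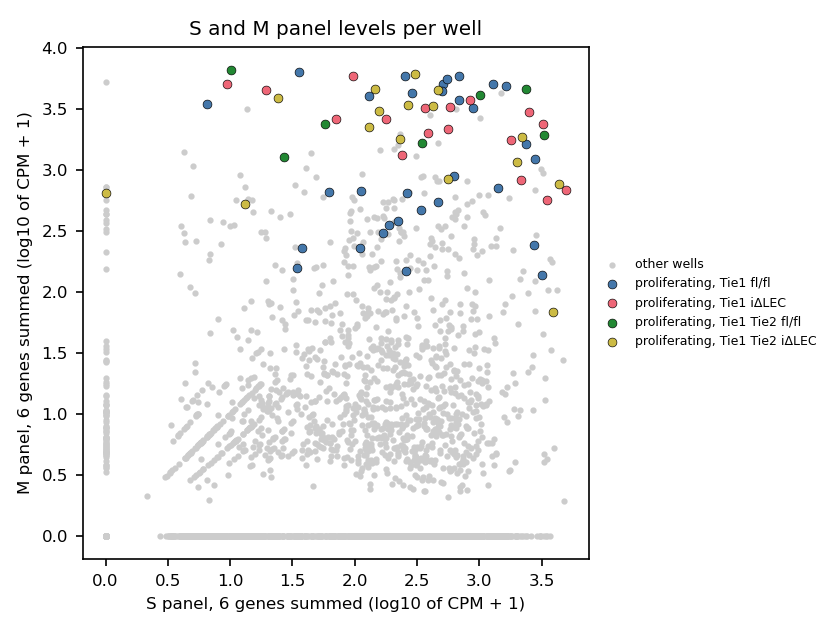
Summed level of the 6 S panel genes (horizontal) and the 6 M panel genes (vertical) in each kept well, both as log10 of CPM + 1. Grey points are other wells and coloured points proliferating wells by genotype, and the latter lie high on the vertical axis while spreading along the horizontal one.

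The cell cycle lists are described without a test, because the wells were chosen by genes of the same programme. Over all genes, 0.624% of the 19077 tested had a mean difference of at least 1 on the log2(CPM + 1) scale and were higher on all 8 plates. In the list for G2 and M phase, 35 of 54 genes did so, the median log2 fold change was 5.91, and the summed level rose from a median of 1602 CPM in other wells to 17336 CPM, 9.83-fold on average over plates. In the S phase list 2 of 43 did so, with a median of 1.52, and the sum was 3.53-fold, with log2 ratios from 0.11 on Tie1 fl/fl 2 to 3.16 on Tie1 Tie2 fl/fl 1.

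The 8 genes outside the rule with the largest mean differences were all mitotic: Plk1, the polo-like kinase, Pimreg, Kif23, Prc1 and Kif2c of the spindle and midzone, Ckap2l, Fam83d and the kinetochore gene Spc25. Plk1 lay between 145 and 1423 CPM in proliferating wells (median 496) and between 0.221 and 8.10 CPM in other wells, so the 2 kinds did not overlap. Kif23 lay between 98.2 and 657 CPM (median 231) against 0.494 to 3.68 CPM. Mean differences of the 8 ran from 6.37 to 7.16 on the log2(CPM + 1) scale.

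Of 12 cyclin and CDK genes, Cdk1, Ccna2, Ccnb1 and Ccnb2 were the 4 with a mean difference of at least 1 that were higher on all 8 plates. Ccna2, the cyclin of S phase and G2, was at 429 to 1135 CPM (median 689) in proliferating wells and at 9.85 to 28.6 CPM in other wells. Ccnb1 and Ccnb2, the mitotic cyclins, had medians of 259 and 609 CPM against 2.11 and 15.0 CPM, again without overlap. Ccne2, the gene of cyclin E2, which acts at entry into S phase, and Cdk2 both overlapped and were both higher on 6 of 8 plates, with medians of 27.0 against 4.41 and 150.1 against 111.1 CPM. Ccnd1, cyclin D1, had medians of 176 and 191 CPM, and its partners Cdk4 and Cdk6 medians of 438 against 473 and 20.6 against 85.7 CPM. The CDK inhibitor genes Cdkn1a, Cdkn1b and Cdkn2d overlapped between the 2 kinds and were higher on 7, 5 and 7 of 8 plates, with medians of 88.7 against 44.0, 60.4 against 36.4 and 179 against 18.3 CPM. Foxm1, the transcription factor of the late programme, was at 62.6 to 569 CPM against 0.709 to 10.1 CPM, while E2f1 was at 0 in the proliferating wells of 4 plates and reached 34.0 CPM.

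Among chromatin and microtubule genes of the cell cycle lists, Hmgb2, a chromatin protein of dividing cells, had a median of 257 against 20.4 CPM and differed by 3.56 ± 0.36 on the log2(CPM + 1) scale (SD, n = 8 plates). Stmn1, stathmin, which destabilises microtubules, had 636 against 184 CPM. Tuba1b had 532 against 175 CPM, and Tubb5 overlapped between the kinds, with 2223 against 1288 CPM.

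Each gene, those of the cell cycle lists included, was then tested on the counts of proliferating and of other wells summed per plate. The test was edgeR's quasi-likelihood test, with plate as a term and a Benjamini-Hochberg adjusted p under 0.05. P-values are printed for genes outside those lists only. A gene outside the lists that follows the cell cycle is favoured by the rule too, and its p does not measure a separate trait. Of 19077 genes, 2601 were called (13.6%), 236 higher (1.24%) and 2365 lower (12.4%) in proliferating wells. The fold changes of all genes were centred below 0, at a median log2 of -1.30, which was -0.75 for genes of at least 20 CPM and -0.26 for genes of at least 100 CPM. With RLE in place of TMM scaling that median was -1.08. The sums of proliferating wells rest on 2 to 29 wells against 242 to 348, and 1984 of the 2365 lower genes were under 20 CPM in both kinds. At least 1 plate had no count in proliferating wells for 2257 of them (95.4%). On the 5 plates with at least 5 proliferating wells, 175 genes were called, 171 higher and 4 lower.

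Of the 236 genes called higher, 174 belonged to the cell cycle lists and 62 did not, out of 18583 genes tested outside those lists. Without the 3 plates with under 5 proliferating wells, 35 genes outside the lists were called higher, of which 23 were among the 62. On the 6 plates labelled male there were 24, of which 22 were. Higher on all 8 plates and at 20 CPM or more were 23 of the 62, shown in the plot of rises by plate.

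Of these 23, 10 were also called on the 5 plates with at least 5 proliferating wells. The other 13, with adjusted p from 0.0628 to 0.161 there, were Gpsm2, Mad1l1, Exosc9, Hnrnpa2b1, Lgals1, Rnf26, Fam166a, Tpi1, Ppp2r5d, Plp2, Nelfcd, Tagln2 and Rpn2.

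Tubb6, a beta-tubulin isotype, had the second largest log2 fold change of the 23, after Fbln1. It lay between 1040.0 and 1827 CPM in proliferating wells (median 1203) and between 91.2 and 225 CPM in other wells (median 140), without overlap. Its log2 fold change was 3.22 ± 0.19 (SE, edgeR adjusted p = 1.48e-07), and it was called under each of the 25 alternatives and left-out plates tried. Nde1, which works with dynein at the centrosome, had 248 to 898 CPM (median 469) against 122 to 185 CPM (log2 1.67 ± 0.27 SE, edgeR adjusted p = 0.00284). Gpsm2, which orients the spindle at the cortex, had 192 to 921 CPM (median 383) against 78.6 to 215 CPM, with the ranges of plates overlapping (log2 1.79 ± 0.32 SE, edgeR adjusted p = 0.00482). Mad1l1, the spindle checkpoint protein Mad1, was called with a log2 fold change of 1.31 ± 0.39 (SE, edgeR adjusted p = 0.0374), a call it lost in 16 of the 25 alternatives. Gpsm2 and Mad1l1 serve the spindle and Nde1 the centrosome, so a rise of these genes is favoured by the rule as well. Their p-values are not independent of how the wells were chosen.

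Some nuclear transport and RNA genes rose. Ran, the GTPase that gives nuclear import its direction and helps spindle assembly (chr5:129020069-129024323 in GRCm38), lay between 347 and 639 CPM (median 539) against 142 to 265 CPM in other wells, without overlap (log2 1.51 ± 0.25 SE, edgeR adjusted p = 0.00328). Of 21 genes listed for nuclear import and RNA processing, 4 were called higher (19.0%, against 1.24% of all genes) and 0 lower: Ran, the importin gene Kpna2, the RNA-binding Hnrnpa2b1 and Rangap1, the last itself in the cell cycle lists. Kpna2 lost its call in 13 of 25 alternatives and Hnrnpa2b1 in 10. The 1.24% includes the cell cycle lists, and outside them 35 of 8391 genes of at least 20 CPM were called higher. The median log2 of the list was 0.48, against -0.75 for all genes of at least 20 CPM, as all 21 were. Its summed level was 1.74-fold, higher on 8 of 8 plates. Outside that list, Exosc9, a subunit of the RNA exosome, had a median of 178 against 44.9 CPM (log2 1.94 ± 0.45 SE, edgeR adjusted p = 0.0143). Hnrnpa2b1 had 565 against 309 CPM. Lmna, which encodes the nuclear lamins A and C, had 1880 against 1242 CPM (log2 0.72 ± 0.13 SE, edgeR adjusted p = 0.00522).

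The extracellular and cytosolic genes in the group were more varied. Fbln1, the matrix glycoprotein fibulin-1 (chr15:85205949-85286535 in GRCm38), lay between 27.7 and 323 CPM in proliferating wells and between 0.594 and 21.2 CPM in other wells, with a log2 fold change of 3.95 ± 0.69 (SE, edgeR adjusted p = 0.00425). It was at 20 CPM or more in 39.1% of proliferating and 4.22% of other wells (mean of plates). Its highest plate was Tie1 Tie2 fl/fl 1, where the fibroblast markers were also highest. On Tie1 Tie2 iΔLEC 1, where those markers summed to 8.61 CPM, Fbln1 stood at 138 against 9.33 CPM.

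Selenoh, a nucleolar selenoprotein, had a median of 102 against 12.6 CPM (log2 2.80 ± 0.60 SE, edgeR adjusted p = 0.00997). Oxct1, the mitochondrial enzyme that uses ketone bodies, had 124 against 34.2 CPM (log2 2.04 ± 0.45 SE, edgeR adjusted p = 0.0118). Lgals1, galectin-1, had 179 against 55.7 CPM with overlapping ranges (log2 1.53 ± 0.41 SE, edgeR adjusted p = 0.0258). The ubiquitin ligase gene Rnf26 and Fam166a had 116 against 21.8 and 156 against 47.5 CPM. Brip1os rose from a median of 70.2 to 337 CPM, but it is antisense to Brip1 and the strand of the counting is not given in the sources used here. The remaining 9 of the 23, with log2 fold changes from 0.59 to 1.41, were Ppp2r5d, a phosphatase 2A subunit, the glycolytic enzyme gene Tpi1, the negative elongation factor subunit gene Nelfcd, Plp2, Clic1, Apobec3, Tagln2 and Rpn2, along with Hnrnpa2b1.

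**Figure D3:**
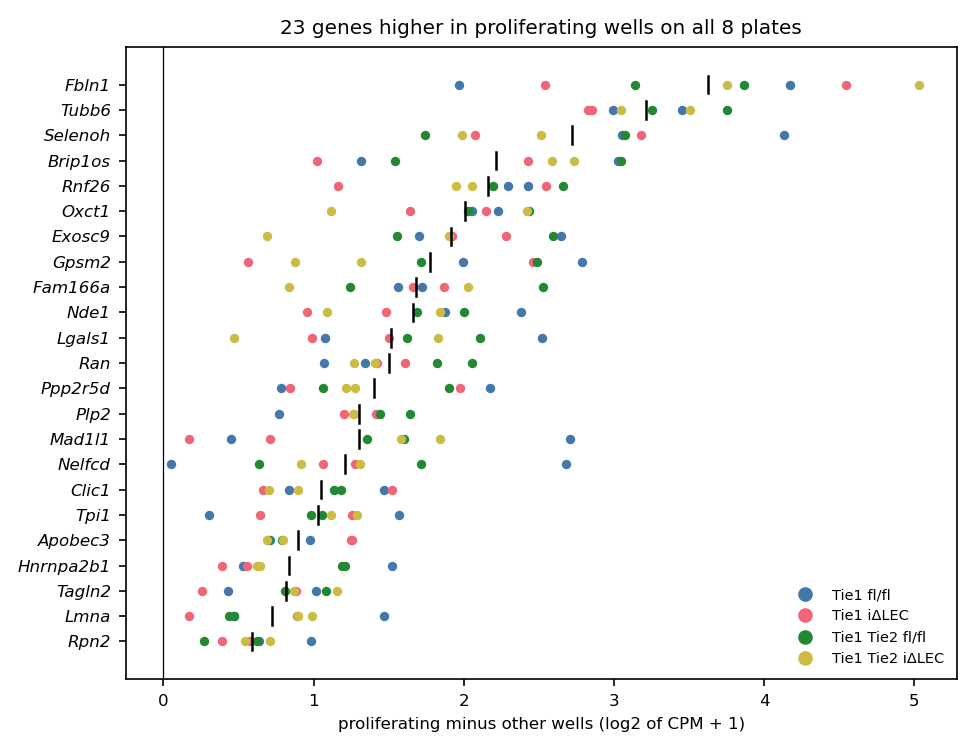
Difference between proliferating and other wells on each plate (points, coloured by genotype) on the log2(CPM + 1) scale, for the 23 genes outside the cell cycle lists called higher, higher on all 8 plates and at 20 CPM or more. Bars are means over plates, from Fbln1 at 3.63 to Rpn2 at 0.59, and all points lie above 0 because that was required.

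Metabolic lists held few calls. Of 18 glycolysis genes, Tpi1 was called higher and Aldoa and Hk2 lower (16.7%, against 13.6% of all genes called in either direction), with a summed level of 1.06-fold. Aldoa, an aldolase, lay between 209 and 836 CPM in proliferating and between 972 and 1312 CPM in other wells (log2 -1.16 ± 0.23 SE, edgeR adjusted p = 0.00769), though it missed the threshold on the 5 plates with at least 5 proliferating wells (adjusted p = 0.151). None of 83 genes of cytosolic ribosomal proteins was called (0.953-fold summed), and of 95 genes of nuclear oxidative phosphorylation 2 were called lower (1.08-fold). Of 22 genes of one-carbon and nucleotide synthesis none was called, with a sum of 1.36-fold that was higher on 6 of 8 plates. Of 13 genes of fatty acid uptake and oxidation none was called, with a sum of 0.728-fold that was lower on 7 of 8 plates. The 12 mitochondrially encoded mRNAs gave 0 calls and a summed level of 0.818-fold, lower on all 8 plates.

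Lymphatic identity genes were expressed in both kinds of well, with a summed level of 0.816-fold in proliferating wells, lower on all 8 plates. Flt4, VEGFR3, lay between 985 and 1716 CPM in proliferating (median 1524) and between 1223 and 1836 CPM in other wells (log2 -0.10 ± 0.13 SE, edgeR adjusted p = 0.634). Lyve1 had medians of 2201 and 2214 CPM (log2 -0.03 ± 0.15 SE, adjusted p = 0.912) and Pdpn of 586 and 521 CPM (log2 0.08 ± 0.21 SE, adjusted p = 0.824). Of 14 identity genes, 4 were called lower (28.6%, against 12.4% of all genes) and 0 higher: Prox1, Reln, Sox18 and Fxyd6. Sox18 lost its call in 18 of 25 alternatives, Reln in 16, Fxyd6 in 5 and Prox1 in 3. On the 5 plates with at least 5 proliferating wells Reln, Sox18 and Fxyd6 missed the threshold (edgeR adjusted p = 0.127, 0.148 and 0.159). The median log2 of the list was -0.34, against -0.26 for all genes of at least 100 CPM, and among all genes of at least 20 CPM, as all 14 were, 381 of 8767 were called lower.

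Prox1, the master transcription factor of lymphatic fate, was the largest of these falls. It stood at 494 and 107 CPM in the proliferating wells of the Tie1 fl/fl plates, 272 and 942 in Tie1 Tie2 fl/fl, 733 and 382 in Tie1 iΔLEC, and 337 and 262 in Tie1 Tie2 iΔLEC. In other wells it stood between 684 and 1102 CPM. It was lower on 7 of 8 plates (log2 -1.22 ± 0.28 SE, edgeR adjusted p = 0.0130), with Tie1 Tie2 fl/fl 2 as the exception. The share of wells at 20 CPM or more was 93.8% against 94.0% (mean of plates). On the 5 plates with at least 5 proliferating wells the fall was -1.03 with an adjusted p of 0.0743.

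Markers of valves and collecting vessels gave lower sums in proliferating wells on all 8 plates, and capillary markers on 6. Of 7 valve markers, 4 were called lower (57.1%, against 12.4% of all genes), namely Cldn11, Gdf10, Gjd3 and Slc41a1, and the summed level of the 7 was lower on all 8 plates, at 254 to 1635 CPM (median 726) against 1085 to 2754 CPM, or 0.395-fold. Of 7 collector markers 3 were called lower (42.9%), namely Ccdc3, Tgm2 and Tsc22d1, with a sum of 0.504-fold, lower on all 8 plates. Of 7 capillary markers only Reln was called, with a sum of 0.910-fold, higher on 2 of 8 plates. All markers of the 3 lists were at 20 CPM or more, and the median log2 of all such genes was itself -0.75.

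The number of wells with such markers was compared next. Wells with at least 4 of the 7 valve markers made up 43.0% of proliferating and 39.6% of other wells (mean of plates, exact sign-flip permutation p = 0.578), and for collector markers 47.5% and 62.2% (exact sign-flip permutation p = 0.195). For capillary markers the shares were 90.8% and 86.1% (exact sign-flip permutation p = 0.133). Gdf10, a valve marker that encodes a TGF-beta family ligand, stood at 2.09 to 161 CPM against 172 to 367 CPM by sum, yet it was at 20 CPM or more in 31.3% of proliferating and 36.8% of other wells. None of these falls was called on the 5 plates with at least 5 proliferating wells.

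**Figure D4:**
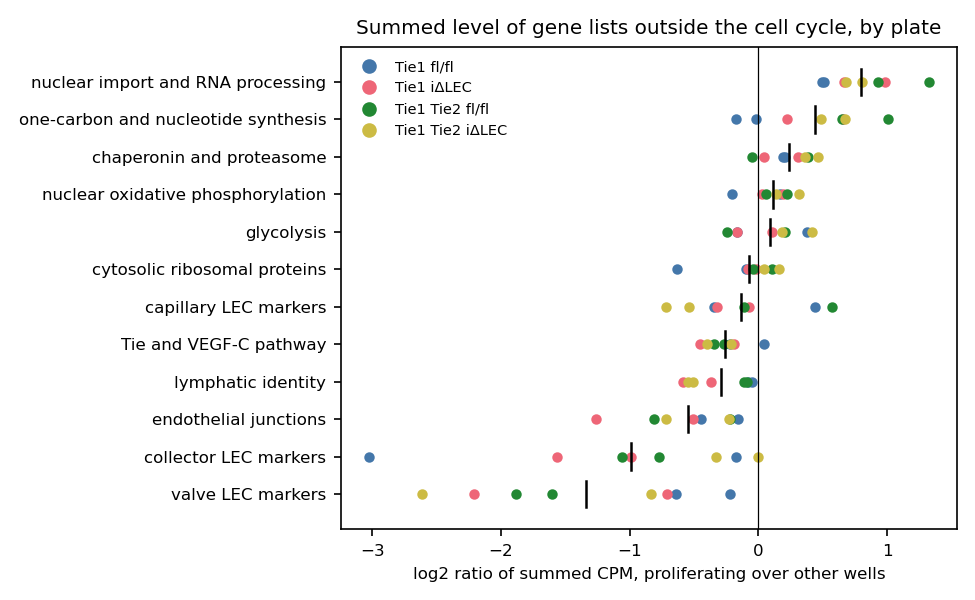
Log2 ratio of the summed CPM of proliferating over other wells on each plate (points, coloured by genotype) for 12 gene lists outside the cell cycle. Bars are means over plates. Nuclear import and RNA processing lies above 0 on all 8 plates, and lymphatic identity, endothelial junctions, collector and valve markers lie below 0 on all 8.

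The shares of the next lists called lower stand beside the 12.4% of all genes. Of 16 junction genes, Cldn5, Gja4 and Cldn11 were called lower (18.8%), and the sum was 0.686-fold, lower on all 8 plates. Cldn5 lost its call in 9 of 25 alternatives, Gja4 in 8 and Cldn11 in 3. On the 5 plates with at least 5 proliferating wells all of them missed the threshold (edgeR adjusted p = 0.185, 0.224 and 0.171). Cldn5, the main endothelial claudin, lay between 1095 and 2545 CPM (median 1968) against 2254 to 3182 CPM (log2 -0.57 ± 0.14 SE, edgeR adjusted p = 0.0189), and Cdh5 was not called. In the basement membrane list Lama4 and Lama5 of 20 were called lower (10.0%), with a sum of 0.918-fold. Of 31 genes of PI3K, Akt and FoxO signalling, Insr and Pik3ip1 were called lower (6.45%). Of 16 genes of the Tie and VEGF-C receptors, their ligands and partners, 1 was called lower (6.25%), and it was the ligand gene Vegfd, which stood at no more than 6.16 CPM on any plate. Of 12 interferon response genes, Ifi44, Ifit1 and Ifit3 were called lower (25.0%), and none of 16 immediate early and stress genes was. Ifi44 and Ifit3 each lost the call in 15 of 25 alternatives and Ifit1 in 5, and Ifi44 reversed in 1. Ifi44 and Ifit3 were each higher on 1 plate. Only 7 of the 12 were at 20 CPM or more, and of all genes under 20 CPM 1984 of 10310 were called lower.

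The largest falls were of genes with scattered counts. The 12 largest that were lower on all 8 plates and at 20 CPM or more in other wells were Tnfrsf21, Cep170b, Dennd6b, Ada, Tgfa, Myo5b, Mrm1, Lysmd4, Pparg, Atg2b, Slc22a4 and Kctd11, and each had no count in the proliferating wells of 3 to 5 plates. Ada, adenosine deaminase, was at 0 to 1.38 CPM against 16.6 to 42.7 CPM, and it was at 20 CPM or more in only 9.30% of other wells. Pparg, the adipogenic nuclear receptor, was at 0 on 5 plates and reached 27.2 CPM, against 7.98 to 82.4 CPM in other wells. None of the 12 was called on the 5 plates with at least 5 proliferating wells. There the 4 falls were Timp3, Rsrp1, Gper1 and B930095G15Rik, all of them also called over 8 plates and named after their values were seen. Timp3, an inhibitor of metalloproteinases, stood at 388 to 2044 CPM (median 983) against 1599 to 2487 CPM and was lower on all 8 plates (log2 over 8 plates -1.12 ± 0.18 SE, edgeR adjusted p = 0.00275).

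Within the proliferating wells, the deleted and control genotypes were compared next, starting with the deleted genes. Tie1 stood at 1858 and 3023 CPM on the Tie1 fl/fl plates, 2845 and 1954 on Tie1 Tie2 fl/fl, 408 and 208 on Tie1 iΔLEC, and 682 and 324 on Tie1 Tie2 iΔLEC. All 4 deleted plates lay below all 4 controls, as in the other wells. Of 11085 genes tested, 1 was called for Tie1 deletion (0.00902%), and it was Tie1 (log2 -3.21 ± 0.56 SE, edgeR adjusted p = 0.00409). For deletion of both receptors 7 genes were called (0.0631%), 1 higher and 6 lower, and Tie1 missed the threshold (log2 -2.37 ± 0.54 SE, adjusted p = 0.0686). With the plates paired by table layout within each strain, a fit added after seeing the data, Tie1 passed it (log2 -2.44, edgeR adjusted p = 0.0381), as it did with the replicate block of the Tie1 strain (edgeR adjusted p = 0.00870). Averaged over both deletions 10 genes were called (0.0902%), with Tie1 at -2.79 ± 0.39 (SE, edgeR adjusted p = 1.62e-05).

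Tek, the Tie2 gene, was scattered. It stood at 141 and 695 CPM on Tie1 fl/fl, 283 and 33.4 on Tie1 Tie2 fl/fl, 135 and 39.0 on Tie1 iΔLEC and 103 and 46.1 on Tie1 Tie2 iΔLEC, and it was not called for deletion of both receptors (log2 -1.21 ± 1.32 SE, edgeR adjusted p = 0.966). In the other wells, Tek stood at 31.2 and 51.3 CPM on Tie1 Tie2 iΔLEC and at 215 to 332 CPM on the other 6 plates.

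Angpt2, the gene of the Tie receptor ligand angiopoietin-2, stood at 257 and 16.6 CPM on Tie1 fl/fl, 1.30 and 443 on Tie1 Tie2 fl/fl, 1185 and 632 on Tie1 iΔLEC and 1172 and 2160 on Tie1 Tie2 iΔLEC. All deleted plates lay above all controls, but the averaged change missed the threshold (log2 2.81 ± 0.69 SE, edgeR adjusted p = 0.0988). The other wells were separated likewise, at 849 to 3285 CPM on the deleted plates and 275 to 501 CPM on the controls. On Tie1 Tie2 fl/fl 1, 3 counts would be 3.47 CPM, above its 1.30 CPM, so the size of the change in proliferating wells is uncertain. The averaged change of Angpt2 stayed uncalled in 14 of the 24 alternatives and left-out plates and was called in 10. Among the 10 were the fit paired by layout, added after seeing the data (log2 4.44, edgeR adjusted p = 1.18e-05), and the replicate block (log2 3.19, edgeR adjusted p = 9.37e-05). Tnc, tenascin-C, was the only gene called higher after deletion of both receptors, at 777 and 733 CPM against 1.30 and 2.16 CPM in the strain's controls (log2 8.62 ± 1.86 SE, edgeR adjusted p = 0.0384). On those control plates 3 counts would be 3.47 and 3.01 CPM, above both control values, so the size of the fold is uncertain. Tnc stood at 129 and 55.0 CPM on Tie1 iΔLEC against 1.21 and 29.1 CPM on Tie1 fl/fl, where it was not called. The call in the Tie1 Tie2 strain was lost without the wells with markers of other cell types (log2 8.80, edgeR adjusted p = 0.190) and when any 1 of the 4 plates of that strain was left out. In other wells Tnc was at 268 and 260 CPM on the Tie1 Tie2 iΔLEC plates, against 15.7 and 30.0 CPM in the strain's controls.

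Of the 6 falls after deletion of both receptors, the 5 largest at 20 CPM or more in a genotype were Igfbp3, H19, Tppp3, Fgl2 and Fndc1. Igfbp3, a binding protein of insulin-like growth factors, was at 0 and 0.501 CPM on Tie1 Tie2 iΔLEC against 261 and 31.3 CPM in the strain's controls (edgeR adjusted p = 0.000917), where 3 counts would be 1.23 and 1.56 CPM on the deleted plates. The imprinted H19 was at 0 and 1.5 CPM against 213 and 778 CPM (edgeR adjusted p = 0.0171). Tppp3, which is 1 of the 7 capillary markers, was at 40.1 and 35.5 CPM against 738 and 958 CPM (log2 -4.59 ± 0.86 SE, edgeR adjusted p = 0.00921), and Fgl2 was at 43.4 and 104 CPM against 1377 and 1043 CPM (log2 -4.15 ± 0.84 SE, edgeR adjusted p = 0.0171). Without the wells with markers of other cell types 4 genes were called, all lower, and Fgl2 (edgeR adjusted p = 0.194) and Fndc1 (adjusted p = 0.0723) were no longer among them. In the other wells of these deleted plates Igfbp3, Tppp3 and Fgl2 were likewise lower than in the strain's controls, as the plot of deleted plates shows.

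Averaged over both deletions, Kcnj8 rose and Gm10605 fell besides genes named above. Kcnj8, a potassium channel gene that is also on the mural cell list, was at 0 to 0.661 CPM on the 4 control plates, 171 and 0 CPM on Tie1 iΔLEC and 365 and 273 CPM on Tie1 Tie2 iΔLEC (edgeR adjusted p = 0.0388). Without the wells with markers of other cell types both genes missed the threshold (adjusted p = 0.0623 for Kcnj8 and 0.0641 for Gm10605), and each lost its call in most of the 24 alternatives (18 for Kcnj8, 17 for Gm10605). Without those wells the averaged calls were 3, namely Tie1, Igfbp3 and Tppp3. With the plates paired by table layout within each strain, Tppp3, Kcnj8 and Gm10605 lost their averaged calls, as given below. On the 3 plates where Kcnj8 was high, 2 to 4 of the 6 mural markers were at 0 and Kcnj8 made up nearly all of the list's sum. In the other wells Kcnj8 stood at 21.5 to 148 CPM on the 4 deleted plates and at 1.47 to 16.9 CPM on the 4 control plates. Which cells the Kcnj8 transcripts came from was not tested.

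Whether deletion changed the difference between proliferating and other wells was tested as an interaction, and no gene was called of 19077 (percent called 0, edgeR), with 741 at an unadjusted p under 0.05. DESeq2 called 42 and limma 0. The proliferating wells of a plate are few, and the fold changes above are those of the wells summed. Leaving out Tie1 fl/fl 1, which leaves 2 proliferating wells as the Tie1 controls, raised the calls for Tie1 deletion from 1 to 61 and the median log2 of all genes in that comparison from 0.30 to 4.17.

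**Figure D5:**
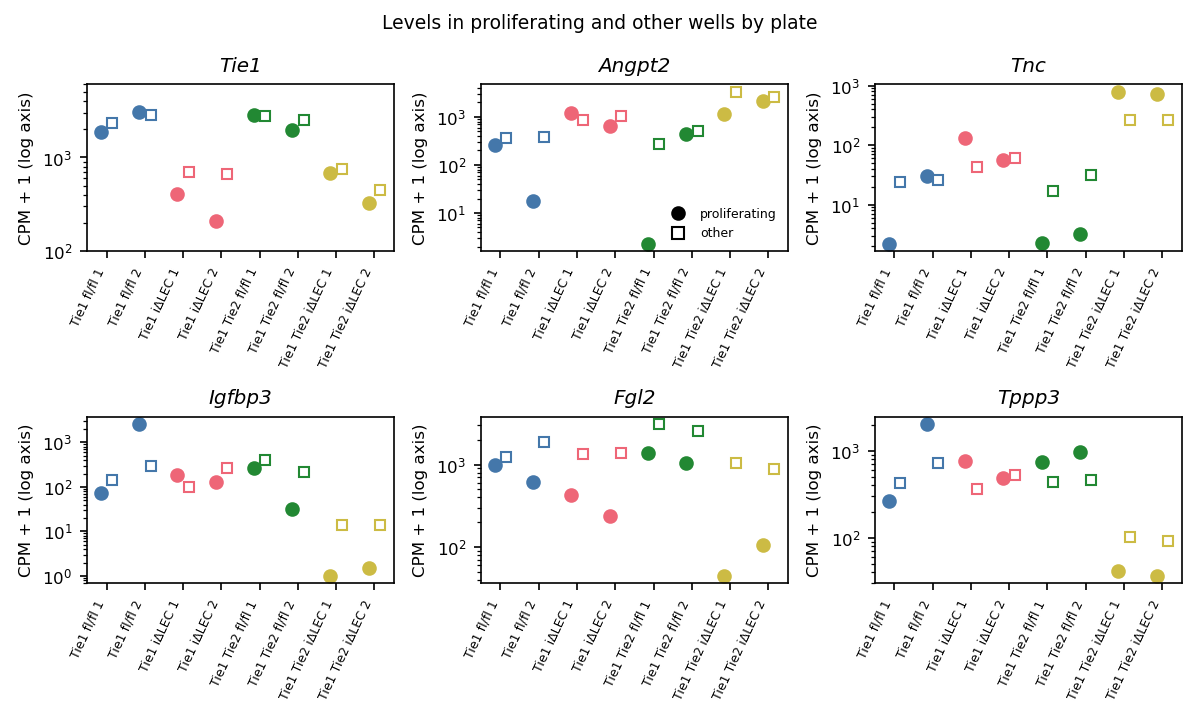
Level of 6 genes, as CPM + 1 on a log axis, in the summed proliferating wells (filled circles) and other wells (open squares) of each plate. Tie1 lies lower and Angpt2 higher in the proliferating wells of all 4 deleted plates than in those of the 4 control plates, and Igfbp3, Fgl2 and Tppp3 are lowest on the 2 Tie1 Tie2 iΔLEC plates.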

How the data were processed

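Single LECs of mouse ear skin were sequenced on 8 Smart-seq plates, 2 per genotype. The authors deposited raw read counts per gene and well for each plate, with duplicates removed as the file headers state. The submitters' processing notes name TopHat2 2.1.1, SAMtools 0.1.18, featureCounts of Subread and the genome GRCm38 (mm10), without roles. The droplet data of the series were not used here. The tables came in 2 layouts, by symbol and by Ensembl identifier, each on 4 plates, and 42558 genes were joined (41776 by the same symbol and 782 by an older one), which held at least 95.9% of the counts of each plate. Spike-ins (0% to 0.155% of counts) were left out. The authors' cell filters and clusters were not applied, and the study analysed fewer cells than are kept here.

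The members, gene lists and tests were chosen with earlier results of these data known. Wells were summed per plate and kind, since wells are not replicates, and tested with edgeR 4.0.16 (R 4.3.3; TMM, filterByExpr, glmQLFit and glmQLFTest, Benjamini-Hochberg over all genes tested). The status fit had plate as a term, the deletion fits the 4 genotypes. Shares and per-well medians were compared by exact permutation. CPM of a well and of a list use its joined gene counts, CPM of single genes per plate use TMM-scaled totals, and log2(CPM + 1) has a pseudocount of 1 CPM. The fits were tested on simulated data. Genes outside the cell cycle lists were named as the 12 largest rises and falls called, of 1 sign on all 8 plates and at 20 CPM or more, leaving out predicted genes. The 11 further rises that met this rule and members of fixed lists were given as examples. For the deletion fits, up to 5 called genes per direction were named. Alternatives were other thresholds of the rule, thinning to 50000 counts, DESeq2 1.42.0, limma 3.58.1, RLE scaling, no low-count filter, table layouts, a replicate block and each plate left out. Those on wells like their plate, male plates, plates with at least 5 proliferating wells, layout as a term and, for deletion, shares and per-well medians, other cell types (and for the medians each layout alone) were added after seeing the data. In each strain the 2 plates of 1 table layout, 1 control and 1 deleted, deviated together in other wells, and pairing them was likewise added.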

Additional observations from a re-analysis of the deposited data

Results flagged for a closer look

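Among the 4 control plates, Tie1 fl/fl 1 stood apart with 10.7% proliferating wells, far from the next control plate. Its other wells held at least 1 count of 4 or more of the selecting genes in 42.1% of cases, likewise far from the other controls, and Tie1 iΔLEC 1 stood apart from the other deleted plates with 31.2%. A gap past the critical value of Dixon’s test is met by chance in about 1 of 20 groups of 4, and these gaps were 0.946, 0.884 and 0.944 of the range. These 2 plates share the female label, the symbol layout and the number 1, and their part in the result cannot be told apart.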

How the results depend on the processing

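Leaving out each plate in turn gave differences in the share of proliferating wells from -3.43 to 1.63 percentage points, log2 differences in counts per well from 0.11 to 0.30 and in detected genes from 0.25 to 0.35. The calls between proliferating and other wells ran from 1436 to 2361, those for the interaction from 0 to 11, for Tie1 deletion from 0 to 61, for deletion of both receptors from 1 to 12 and for their average from 2 to 28. The share difference reversed without Tie1 fl/fl 1 (1.63 points), on the plates of Ensembl layout alone (1.16) and on the male plates (1.07). Counts per well reversed at 10 CPM (log2 -0.18) and on the symbol layout alone (-0.017), and passed the threshold at 50 CPM (0.39, exact permutation p = 0.0469), without wells with markers of other cell types (0.43, exact permutation p = 0.0469) and with 100000 counts (0.47, exact permutation p = 0.00781). Detected genes missed it on the male plates (0.34, exact permutation p = 0.0625), and where the number of plates cannot reach 0.05: on the symbol (0.28) and Ensembl (0.34) layouts alone and on the plates with at least 5 proliferating wells (0.36). Ifi44 turned to 0.36 with 3 of 6 genes required.

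The calls between proliferating and other wells moved most in absolute number: 1178 with 3 of 6 genes, 992 at 10 CPM, 332 after thinning, 1122 against other wells of the same depth range, 140 and 66 on the symbol and Ensembl layouts alone, 1507 on the male plates, 175 on the plates with at least 5 proliferating wells, 4045 with DESeq2 and 1519 without the low-count filter. For the interaction there were 10 with 5 of 6 genes, 2 on each layout alone, 42 with DESeq2 and 2 without the filter. For Tie1 deletion there were 0 with 5 of 6 genes and after thinning, 7 on the male plates, 24 with DESeq2 and 2 with layout as a term. For deletion of both receptors there were 34 with 5 of 6 genes, 0 after thinning, 4 without wells with markers of other cell types, 110 with DESeq2, 3 with limma and 11 with layout as a term. For the average there were 6 with 3 of 6 genes, 21 with 5 of 6, 3 at 10 CPM, 3 without wells with markers of other cell types, 6 with 100000 counts, 1 after thinning, 6 without wells like their plate, 107 with DESeq2, 16 with RLE, 18 without the filter, 1 with limma and 16 with layout as a term. The cause of these moves was not tested. The replicate block of the numbers that the labels give to both arms, which are those of the Tie1 strain, gave 1, 11 and 13 calls for the 3 deletion comparisons. A block that pairs the plates of both strains by table layout gave 1, 9 and 10. No label ties a number to a shared litter or day. The differences between the 2 plates of the controls and of the deletions correlated across 7636 genes at r = 0.025 (Tie1) and 0.0048 (Tie1 Tie2) in proliferating wells, but across 8025 genes at 0.36 and 0.34 in the deeper other wells, and genes are not independent. Under this pairing Tppp3, Kcnj8 and Gm10605 lost their averaged calls (edgeR adjusted p = 0.0831, 0.536 and 0.123).

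Of 1699 alternatives over the 68 named genes called between proliferating and other wells, 1183 kept direction and call, 515 lost the call and 1 reversed. Precision is limited by the 2 to 29 proliferating wells of a plate: a gene with no count there can still reach 0.328 CPM on Tie1 fl/fl 1 and 3.83 CPM on Tie1 fl/fl 2, and intervals and limits cover counting error only.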
